A study of Mus musculus with 4 samples.

Results

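The genes described here belong to the integrated stress response and to the serine synthesis pathway it controls, measured in mouse tibialis anterior (TA) muscle with or without its nerve supply. They were chosen by name. The rule lists 10 genes, Atf4, Atf5, Ddit3, Asns, Psat1, Phgdh, Sesn2, Mthfd2, Shmt2 and Trib3, and 9 of them had a row among the 13825 genes of the count table. Phgdh, the first enzyme of serine synthesis, was not analysed here. All 9 passed the filter on low counts, a mean of at least 10 counts over the libraries, as did 13084 genes in all. TA muscles came from adult male WT and whole-body FGF21KO (Fgf21KO) mice, in which FGF21, a stress-induced secreted factor, is deleted in all tissues. Each group was a pool of 4 muscles taken 14 days after surgery and sequenced as 1 library. The sham libraries are called WS (WT) and KS (Fgf21KO), and the denervated ones WD (WT) and KD (Fgf21KO). Denervation was by removal of a piece of the sciatic nerve of one leg, and the opposite leg served as the sham control. The labels call that leg innervated, whereas the study's methods describe a sham operation on it. The study bought its WT C57BL/6J mice and obtained the Fgf21KO mice from another laboratory, and their strain background is not given in the sources used here, so strain and genotype cannot be told apart. With 1 pool per group, no difference between 2 libraries has a replicate check.

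The integrated stress response starts when any of several kinases phosphorylates the translation factor eIF2. Most protein synthesis then slows, while the mRNA of the transcription factor ATF4 is translated more, so that ATF4 activity can change with no change in Atf4 mRNA. ATF4 switches on genes for amino acid synthesis, uptake and tRNA charging, and in muscle with mitochondrial damage it is known to drive serine synthesis, mitochondrial one-carbon metabolism and Fgf21 itself. Serine is built from a glycolytic intermediate by PHGDH, PSAT1 and PSPH, and SHMT2 and MTHFD2 then pass its side-chain carbon to folate inside mitochondria.

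ATF4 binds a composite DNA element together with C/EBP proteins, and the element was looked for in the RefSeq promoter windows of these genes (GRCm38.p6, 250 bases before to 50 bases after the annotated start). The letters searched were TGATGNAA, or TTNCATCA on the other strand. Of the 10 genes named, all with at least 1 window, 2 held it, Asns and Trib3. Counted by windows this was 2 of 12 (16.7%), against 3.97% of the 32851 windows of all genes. The windows of Asns and Trib3 are shown because they hold the element, given in capitals, and that of Mthfd2 because it had the largest response to denervation of the 9 genes and holds none. The Asns window is chr6:7693160-7693459 on the minus strand, the Trib3 window is chr2:152344011-152344310 on the minus strand, and the Mthfd2 window is chr6:83317555-83317854 on the minus strand. All are written 5′ to 3′ along the gene.
Asns: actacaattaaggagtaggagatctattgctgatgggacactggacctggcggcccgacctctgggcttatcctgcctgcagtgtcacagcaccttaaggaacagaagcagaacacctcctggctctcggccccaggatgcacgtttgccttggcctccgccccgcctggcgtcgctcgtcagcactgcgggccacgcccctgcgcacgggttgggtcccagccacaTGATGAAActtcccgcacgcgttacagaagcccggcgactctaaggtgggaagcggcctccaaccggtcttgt
Trib3: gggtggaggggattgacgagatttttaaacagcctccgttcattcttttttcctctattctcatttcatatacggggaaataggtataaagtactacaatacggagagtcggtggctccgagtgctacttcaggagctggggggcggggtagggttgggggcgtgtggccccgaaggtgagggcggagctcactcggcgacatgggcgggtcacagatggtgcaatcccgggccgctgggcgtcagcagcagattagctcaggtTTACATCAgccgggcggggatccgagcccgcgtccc
Mthfd2: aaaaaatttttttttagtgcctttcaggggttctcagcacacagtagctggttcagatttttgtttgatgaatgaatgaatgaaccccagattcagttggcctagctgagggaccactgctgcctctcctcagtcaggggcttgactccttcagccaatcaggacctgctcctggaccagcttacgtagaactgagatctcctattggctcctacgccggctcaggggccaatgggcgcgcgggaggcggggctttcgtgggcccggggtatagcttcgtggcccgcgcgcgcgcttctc
In Asns the element began 23 bases before the annotated start, and in Trib3 it began 14 bases after it. A match to these letters is a description of the sequence and says nothing of binding.

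Denervation raised the mRNA of Mthfd2, Asns, Psat1 and Trib3, by 2.45-fold (Trib3) to 8.28-fold (Mthfd2) in a model of all 4 libraries. In the single genotypes the ratios ran from 2.23-fold (Trib3 in Fgf21KO) to 10.2-fold (Mthfd2 in WT). The transcription factors stood apart from these genes. Atf4 mRNA was 1.69-fold lower after denervation, and Atf5 and Ddit3 were at most 1.18-fold from sham in either genotype. The test was edgeR's quasi-likelihood test in a model of genotype plus surgery over the 4 libraries, in which the genotypes stand in for replicates of the surgery. It passed a gene at an adjusted p-value under 0.05 and at least a 2-fold change. By that rule 4 of the 9 genes rose and 0 fell, where 13.1% of all genes tested passed in either direction, 6.84% rising and 6.24% falling. By the adjusted p-value alone, 7 of the 9 passed (6 higher, 1 lower), and so did 53.5% of all genes. The median log2 fold change of the 9 genes was 0.62, and that of all genes tested was 0.01. The plot of normalised counts shows each gene in each library.

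**Figure D1:**
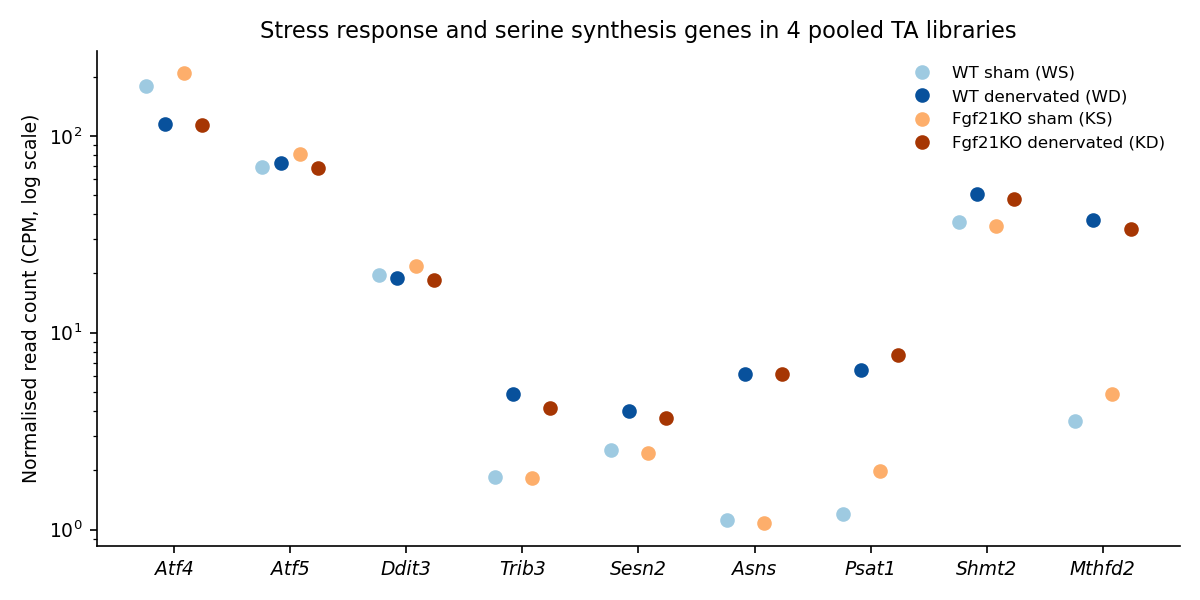
Normalised read counts (CPM, log axis) of the 9 genes, with 1 point for each pooled library. For Mthfd2, Asns, Psat1, Trib3, Sesn2 and Shmt2 both denervated libraries lie above both sham libraries, for Atf4 and Ddit3 both lie below, and for Atf5 the libraries overlap.

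Mthfd2, the mitochondrial enzyme that oxidises methylene folate and is low in most adult tissues, had 83 (WS) and 145 (KS) counts in sham muscle against 1214 (WD) and 1040 (KD) in denervated muscle. In CPM, the count scaled to library size by the TMM method of edgeR, this came to 3.57 (WS) and 4.88 (KS) CPM against 37.2 (WD) and 33.6 (KD) CPM. Both denervated libraries stood far above both sham libraries, and of the 9 genes Mthfd2 responded most. The ratio was 10.2-fold in WT muscle and 6.81-fold in Fgf21KO muscle, and the model gave a log2 fold change of 3.05 ± 0.14 (SE, edgeR adjusted p = 2.24e-17).

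Shmt2, the mitochondrial enzyme that splits serine into glycine and a one-carbon unit, had 843 (WS) and 1035 (KS) counts in sham muscle against 1643 (WD) and 1475 (KD) in denervated muscle. Its level came to 36.3 (WS) and 34.9 (KS) CPM against 50.3 (WD) and 47.7 (KD) CPM, so the denervated libraries were again the higher ones. The model's log2 fold change of 0.46 ± 0.08 (SE, edgeR adjusted p = 3.2e-05) was below 2-fold and did not pass. Per kilobase of exon, the level of Mthfd2 was 9.19-fold below that of Shmt2 in WS and 6.46-fold below in KS, but 1.22-fold below in WD and 1.28-fold below in KD. The mRNAs of these consecutive enzymes were thus at near-equal levels per length only in the denervated libraries. Reads from Shmt2 could overlap those of Ndufa4l2 on the opposite strand, whose exons share bases with it in GENCODE M21. The library kit keeps strand, but whether the counting used it is not given in the sources used here.

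Psat1, the aminotransferase of serine synthesis, had 28 (WS) and 59 (KS) counts in sham muscle against 210 (WD) and 238 (KD) in denervated muscle, or 1.21 and 1.99 CPM against 6.43 and 7.69 CPM. Both denervated libraries were above both sham libraries, and as a ratio the sham libraries lay further from each other than for any other of the 9 genes. The model's log2 fold change was 2.15 ± 0.23 (SE, edgeR adjusted p = 5.1e-09). Psph, the next enzyme of the pathway, had 252 (WS) and 310 (KS) counts in sham muscle against 200 (WD) and 222 (KD) in denervated muscle, and its log2 fold change was -0.68 ± 0.15 (SE, edgeR adjusted p = 0.000413), which is lower after denervation and did not reach 2-fold. Per kilobase, Psat1 was 15.2-fold below Psph in WS and 8.90-fold below in KS, but 1.61-fold and 1.58-fold below in WD and KD.

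Asns, which makes asparagine from aspartate and glutamine, had 26 (WS) and 32 (KS) counts in sham muscle against 201 (WD) and 191 (KD) in denervated muscle, or 1.12 and 1.08 CPM against 6.16 and 6.17 CPM. The libraries of like surgery were nearly level, and the denervated ones were higher by 5.24-fold in WT and 5.45-fold in Fgf21KO muscle. The model's log2 fold change was 2.49 ± 0.25 (SE, edgeR adjusted p = 1.7e-09). This is one of the genes whose promoter window holds the element shown above.

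Trib3, a pseudokinase induced by ATF4 and CHOP that restrains ATF4 and AKT signalling, had 43 (WS) and 54 (KS) counts in sham muscle against 160 (WD) and 128 (KD) in denervated muscle, or 1.85 and 1.82 CPM against 4.90 and 4.14 CPM. The sham libraries were level and both denervated libraries were higher. Its log2 fold change was 1.29 ± 0.25 (SE, edgeR adjusted p = 6.0e-05). Sesn2, a stress-induced inhibitor of mTORC1, had 59 (WS) and 73 (KS) counts in sham muscle against 131 (WD) and 114 (KD) in denervated muscle. Its log2 fold change of 0.62 ± 0.24 (SE, edgeR adjusted p = 0.0304) did not reach 2-fold, and with DESeq2 its adjusted p-value was above 0.05.

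Atf4, the transcription factor at the centre of the response, was the most abundant of the 9 mRNAs per kilobase in all 4 libraries, at 103 CPM per kb in WS and 120 in KS. It had 4144 (WS) and 6172 (KS) counts in sham muscle against 3749 (WD) and 3495 (KD) in denervated muscle. After scaling this came to 178 (WS) and 208 (KS) CPM against 115 (WD) and 113 (KD) CPM, so both denervated libraries lay below both sham libraries. The log2 fold change was -0.76 ± 0.07 (SE, edgeR adjusted p = 9.7e-10), below the 2-fold threshold, and with scaling by total counts only it was -0.44.

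Atf5, a related factor that responds to mitochondrial protein stress, had 1614 (WS) and 2406 (KS) counts in sham muscle against 2380 (WD) and 2120 (KD) in denervated muscle, or 69.5 and 81.0 CPM against 72.9 and 68.5 CPM. Sham and denervated libraries overlapped, and the log2 fold change was -0.09 ± 0.08 (SE, edgeR adjusted p = 0.38). Ddit3, which encodes CHOP, the factor tied to death under prolonged stress, had 458 (WS) and 644 (KS) counts in sham muscle against 617 (WD) and 573 (KD) in denervated muscle, or 19.7 and 21.7 CPM against 18.9 and 18.5 CPM. Both denervated libraries were slightly below both sham libraries. The log2 fold change of Ddit3 was -0.15 ± 0.11 (SE, edgeR adjusted p = 0.273), which did not pass. The residual of that test is the difference between the genotypes' responses and holds no measure of the spread between mice. With scaling by total counts only, the log2 fold changes of Atf5 and Ddit3 turned positive, at 0.23 and 0.18. In GENCODE M21 the exons of Atf5 share bases with Nup62 and Il4i1 on the opposite strand. Its counts thus carry a doubt of the same kind as those of Shmt2. Of the 50-base words in the exons of each of the 9 genes, at most 1.81% (Atf5) occurred in another gene. The shared words of Atf5 were in Nup62 and Il4i1, and Ddit3 shared 1.11% of its words with Mars. Shmt2 shared none with Ndufa4l2.

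The order of the levels per kilobase changed with surgery in the lower part of the range. In WS the order was Atf4, Atf5, Ddit3, Shmt2, Mthfd2, Trib3, Sesn2, Asns and Psat1, and the counting intervals (95%) of neighbours met from Trib3 to Psat1. In WD it was Atf4, Atf5, Shmt2, Ddit3, Mthfd2, Asns, Trib3, Psat1 and Sesn2. There the intervals met between Shmt2 and Ddit3 and from Asns to Psat1. Mthfd2 rose from 1.71 CPM per kb in WS to 17.8 in WD, close to Ddit3 at 21.2. In KS and KD the levels of Mthfd2 were 2.34 and 16.1 CPM per kb.

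Compared as single pairs of libraries, with no test, 4 of the 9 genes exceeded a 2-fold ratio of WD over WS, all upward, where 14.8% of all genes tested did (7.18% upward and 7.61% downward). Of KD over KS it was 4 of the 9, again upward, where 13.6% of all genes did (7.51% upward and 6.10% downward). In each pair they were Mthfd2, Asns, Psat1 and Trib3. The exact test of edgeR was run with the variation between libraries, each a pool of 4 muscles, set to a coefficient of 0.4. It called 0 of the 9 genes in either pair. Among all 13084 genes tested it called only 63 for WT and 81 for Fgf21KO muscle. The plot of denervation ratios sets the genotypes side by side with counting intervals, which are exact binomial intervals and leave out the spread between mice.

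**Figure D2:**
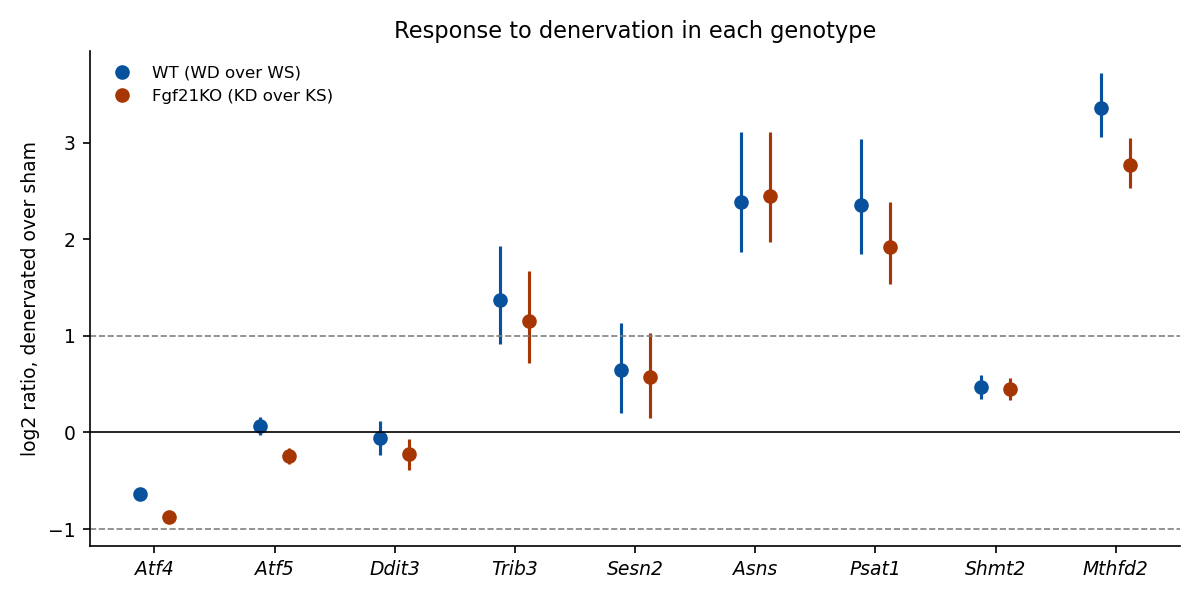
Log2 ratio of denervated over sham muscle for each of the 9 genes in WT (blue) and Fgf21KO (red) muscle. Lines are 95% counting intervals and dashed lines mark a 2-fold ratio, which Mthfd2, Asns, Psat1 and Trib3 exceeded in both genotypes.

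The study asks what loss of Fgf21 does to denervated muscle. Since ATF4 is known to drive Fgf21 in muscle with mitochondrial damage, the other genes of the pathway were compared between genotypes. For denervated muscle, the study itself attributes the rise of Fgf21 to the growth factor TGFB1, acting through JNK and c-Jun. Its discussion reports fewer ER stress markers when the deacetylase HDAC4 gathers in the cytoplasm, and proposes ATF4 as a probable HDAC4 substrate. That proposal concerns the ATF4 protein and was not tested here. None of the 9 genes (0) passed for genotype in edgeR's quasi-likelihood test, where 0.176% of all genes did (0.0611% higher and 0.115% lower in Fgf21KO). By the adjusted p-value alone it was 0 of the 9 and 0.673% of all genes. At an unadjusted p under 0.05 the count was 0 as well, where 7.93% of all genes were, and by DESeq2's Wald test it was 0. In single pairs, 0 of the 9 were 2-fold apart between KS and WS and 0 between KD and WD, against 2.04% of all genes (0.887% higher, 1.15% lower in Fgf21KO) and 1.55% (0.841% higher, 0.711% lower). In sham muscle Psat1 was 1.61-fold higher in Fgf21KO (log2 ratio 0.69, interval 0.05 to 1.42) and Mthfd2 was 1.36-fold higher (0.44, 0.05 to 0.86). In denervated muscle these log2 ratios were 0.26 (-0.02 to 0.53) for Psat1 and -0.15 (-0.27 to -0.03) for Mthfd2. Atf4 was 1.16-fold higher in KS than in WS (0.22, 0.16 to 0.28) and nearly level in denervated muscle (-0.02, -0.09 to 0.04). Asns had log2 ratios of -0.05 (-0.85 to 0.75) and 0.00 (-0.29 to 0.30), and at its sham depth of 26 and 32 counts a difference within the first interval was not detectable. These intervals cover counting error only and are narrower than intervals between mice would be.

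**Figure D3:**
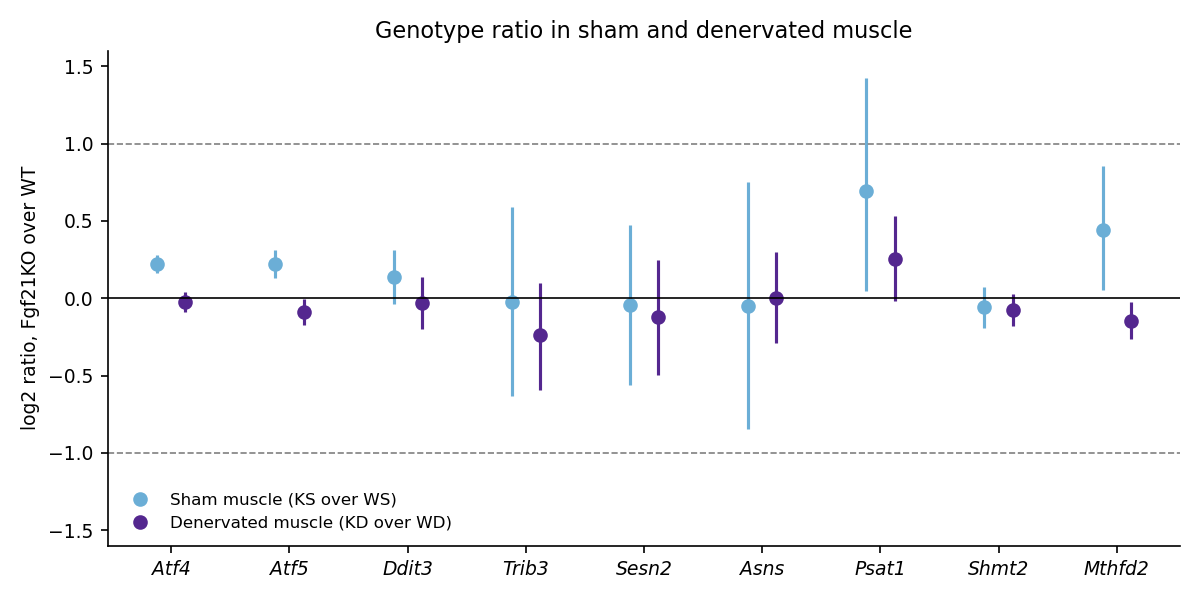
Log2 ratio of Fgf21KO over WT for the 9 genes in sham (light blue) and denervated (purple) muscle, with 95% counting intervals and dashed lines at a 2-fold ratio. No point reaches a 2-fold ratio, and the largest, Psat1 in sham muscle, is at 0.69.

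The size of the denervation response was compared between genotypes as the log2 ratio in Fgf21KO minus that in WT, which could not be tested because the 1 residual degree of freedom of the model is this difference itself. It was at least 1 apart for 0 of the 9 genes, where 4.11% of all genes were. The difference was -0.59 for Mthfd2 (counting interval -1.003 to -0.19), -0.43 for Psat1 (-1.17 to 0.24), -0.31 for Atf5 (-0.44 to -0.19) and -0.24 for Atf4 (-0.33 to -0.16). For Asns it was 0.06 (-0.74 to 0.86) and for Shmt2 -0.02 (-0.19 to 0.15). The comparisons of Fgf21KO with WT in sham muscle and of the denervation responses share the same sham libraries.

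The genes around these 9 were described from lists of pathway genes, and the plot of the lists shows each gene's denervation effect. Carriers that bring in amino acids had the highest median of the 7 lists. Of the 10 carriers tested, 4 rose and 0 fell, where 6.84% of all genes tested rose and 6.24% fell. Their median log2 fold change was 0.85. Slc7a5, the light chain of the large neutral amino acid carrier, rose from 37 counts in WS to 456 in WD and from 34 in KS to 485 in KD, a log2 fold change of 3.46 in the model (edgeR adjusted p = 5.6e-15). Slc38a1, a glutamine carrier, rose from 13 to 136 and from 18 to 187 counts, 8.73-fold (edgeR adjusted p = 5.8e-10). The lowest were Slc38a4 (log2 fold change -0.75) and Slc1a5 (-0.61), which did not reach 2-fold. Slc3a2, the heavy chain that pairs with Slc7a5, had a log2 fold change of -0.07 and was chosen after its value was seen.

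Other genes listed as ATF4 targets split between the directions. Of 23 tested, 2 rose and 3 fell, where 6.84% of all genes tested rose and 6.24% fell. The median log2 fold change of the 23 was -0.23. Gadd45a, a growth arrest gene, rose 25.6-fold, from 648 counts in WS to 23083 in WD and from 810 in KS to 21870 in KD. Atf3, a stress-induced transcription factor, rose 5.74-fold, from 65 to 672 and from 128 to 632 counts. Gpt2, the mitochondrial alanine aminotransferase, fell 3.21-fold, from 9330 to 4219 and from 12348 to 3883 counts. Chac1, which breaks down glutathione and is induced by ATF4, ATF3 and CHOP, fell 2.66-fold, from 1821 to 1011 and from 1870 to 694 counts. Trib3 and Chac1, both used as markers of this response, thus moved in opposite directions in both genotypes. Fgf21 and Gdf15, the secreted factors of the response, were not analysed here, so the knockout could not be checked against the targeted gene.

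Among 25 other serine, glycine and one-carbon genes, 1 rose and 1 fell, with a median log2 fold change of -0.01. That is 8% of the list, against 13.1% of all genes tested. Tyms, the thymidylate synthase of dividing cells, rose from 9 to 39 and from 6 to 22 counts (log2 fold change 1.69 ± 0.48 SE, edgeR adjusted p = 0.00402), and its counts are too low to pass a filter at a mean of 50. Ahcy, which recycles homocysteine from S-adenosylhomocysteine, was next at 0.62. Sfxn3, a mitochondrial serine carrier, fell 2.92-fold, from 606 to 315 and from 702 to 230 counts, and Aldh1l1, a cytosolic folate dehydrogenase, was at -0.97. Mthfd2l, the close relative of Mthfd2 that adult tissues use, had 121 (WS) and 112 (KS) counts in sham muscle against 151 (WD) and 130 (KD) in denervated muscle. Its log2 fold change was -0.01, and it was chosen after its value was seen. Per kilobase, Mthfd2 was 10.4-fold above Mthfd2l in WD and 10.3-fold above it in KD, against 1.67-fold in KS and 1.13-fold below it in WS.

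**Figure D4:**
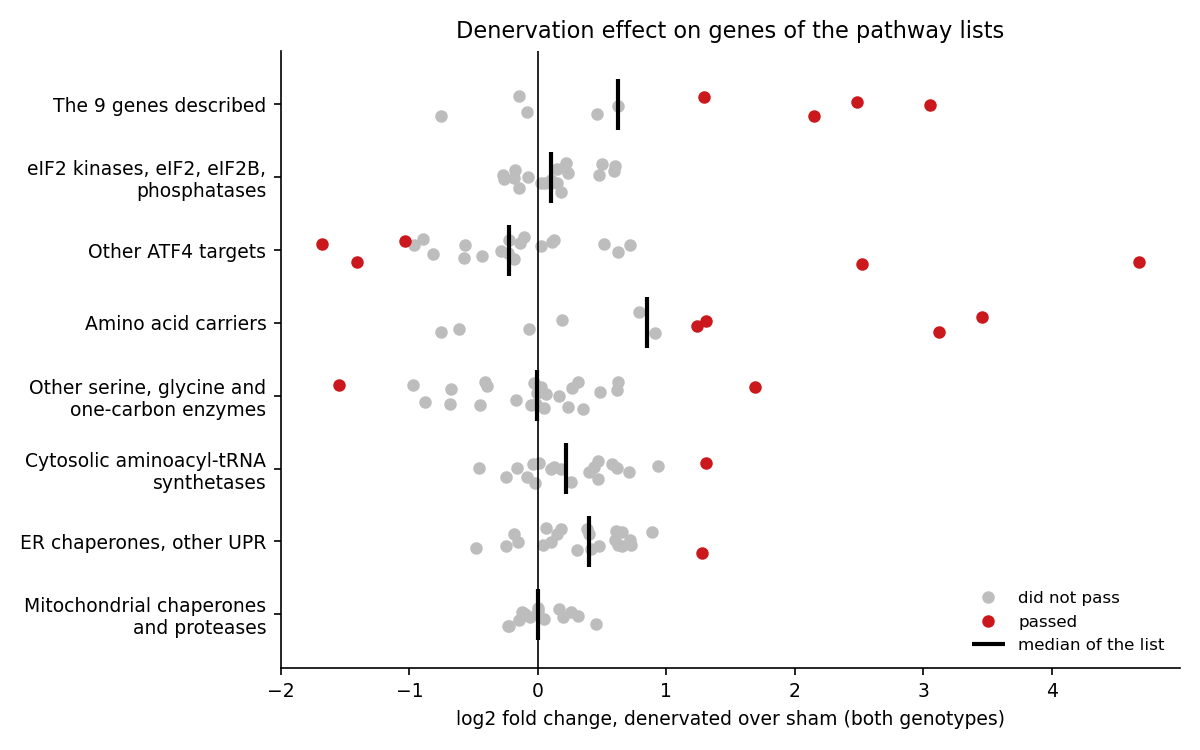
Log2 fold change of denervated over sham muscle from the model of all 4 libraries, with 1 point per gene and 1 row per list. Red points passed an adjusted p-value under 0.05 and 2-fold, and black bars are list medians, from -0.23 for other ATF4 targets to 0.85 for amino acid carriers.

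Upstream of ATF4, 0 of 19 genes for the eIF2 kinases, eIF2, its exchange factor eIF2B and its phosphatases passed (edgeR). Of all genes tested 13.1% passed (6.84% rising, 6.24% falling), a share that also applies to the lists that follow. At an unadjusted p under 0.05 there were 9 of 19, where 58% of all genes tested were, and by DESeq2 0 passed. Their log2 fold changes lay between -0.27 and 0.60, with a median of 0.10. The highest were Impact (0.60) and Eif2b3 (0.59), and the lowest Dele1 (-0.27), which relays mitochondrial stress to the kinase HRI, and Eif2ak4 (-0.27), the kinase that senses amino acid shortage. Of 20 cytosolic aminoacyl-tRNA synthetases, 1 rose, Dars (2.48-fold, from 1768 to 6324 and from 2492 to 6296 counts), which charges tRNA with aspartate. Gars was next at 0.94, and Yars (-0.46) and Mars (-0.25) were lowest. Under total counts only, 3 of the 20 passed, but the 13.1% was taken with TMM scaling and does not apply to this count. Total counts put the median log2 ratio of all genes at 0.29 in WT and 0.36 in Fgf21KO muscle. Of 23 ER chaperones and other genes of the unfolded protein response, 1 rose, Sdf2l1 (2.43-fold), with Manf next (0.89) and Creb3l2 (-0.48) and Dnajb9 (-0.25) lowest. Their median was 0.40, and 4 passed under total counts only, to which the 13.1% does not apply either. Of 14 mitochondrial chaperones and proteases 0 passed (edgeR), against 7 of 14 at an unadjusted p under 0.05, where the share of all genes was 58%, and 0 by DESeq2. They ranged from -0.23 for Spg7 to 0.45 for Htra2, with Clpx at 0.31 and Clpp at -0.22.

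Over all 9744 tested genes with a promoter window, 15.2% of the 263 that held the ATF4 and C/EBP element passed for denervation and 12.2% of the 9481 without it, and the median log2 fold changes were both 0.01. Among the 9 genes and the pathway lists, 17 held it, of which 3 rose (Asns, Atf3 and Trib3) and 1 fell (Chac1). The element was found in genes that moved either way.

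The genes whose pattern over the 4 libraries was nearest to that of Mthfd2, among 11307 genes averaging 50 counts or more, were Sox9, Tlr5 and Cd28, at distances of 0.11, 0.27 and 0.28 on the log2 CPM scale. Sox9, a transcription factor of cartilage and other progenitors, had 34 (WS) and 64 (KS) counts in sham muscle against 492 (WD) and 425 (KD) in denervated muscle. Of the 9 genes themselves, Asns was nearest to Mthfd2 at a distance of 0.74, and Atf4 was farthest at 3.82. With 4 libraries such distances are a description only.

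The 4 libraries held 25249879 to 34141303 counts. Mitochondrially encoded protein genes took 27.0% of them in WS and 30.4% in KS, against 19.4% in WD and 20.6% in KD. Of 10 muscle fibre markers 2 could be examined, and both, Myh1 and Mylpf, were high in every library, at 510937 to 641610 and 171950 to 299459 counts. After scaling both were lower in denervated muscle of either genotype, with log2 fold changes of -0.47 for Myh1 (edgeR adjusted p = 0.000278) and -0.86 for Mylpf (edgeR adjusted p = 1.89e-09), below 2-fold. Their summed level was 33830 (WS) and 31690 (KS) CPM against 20920 (WD) and 23090 (KD) CPM. Macrophage markers moved with the surgery, as all 8 listed were higher in both denervated libraries than in the sham library of the same genotype. Their summed level was 30.8 (WS) and 33.6 (KS) CPM against 70.0 (WD) and 67.9 (KD) CPM. Of the 8, 3 passed, all higher, where 6.84% of all genes tested rose. Cd68 had 23 (WS) and 32 (KS) counts in sham muscle against 350 (WD) and 333 (KD) in denervated muscle. Of 7 markers of cycling cells 5 could be examined, and 0 passed (edgeR). At an unadjusted p under 0.05 there were 3, where 58% of all genes tested were. Their summed level was 31.9 (WS) and 33.2 (KS) CPM against 39.2 (WD) and 42.0 (KD) CPM, most of it from Pcna and Mcm2. The denervation log2 ratios of Pcna were 0.47 in WT and 0.55 in Fgf21KO muscle, and those of Mcm2 -0.22 and -0.05. For Mki67, Top2a and Cdk1 they were 1.45, 1.22 and 0.87 in WT muscle. In Fgf21KO muscle they were 0.43, 0.44 and -1.48. Counts of these last genes were low (Cdk1, 25 in WD and 5 in KD), and the difference between genotypes was not tested. Endothelial markers were lower, from 415 to 194 CPM in WT and from 336 to 185 CPM in Fgf21KO muscle. By the test 2 of 5 fell, where 6.24% of all genes tested did. For the 7 markers of fibroblasts and fibro-adipogenic progenitors the sums were 634 (WS) and 618 (KS) CPM against 417 (WD) and 432 (KD) CPM. By edgeR 0 passed, where 13.1% of all genes tested did, and 6 had an unadjusted p under 0.05, where 58% did. Pdgfra, which the study used to define these progenitors, had a log2 fold change of -0.35 (edgeR adjusted p = 0.0505). The study isolated more of them from denervated limb muscle, a number of cells and not a share of mRNA. Of the 6 Schwann cell markers 3 could be examined, and of the 4 adipocyte markers 1, with 0 passing (edgeR; 1 and 0 at an unadjusted p under 0.05). No satellite cell marker was analysed here. The lowest count of any gene in the count table was 1 in each library, so no marker in it could be at 0. The part of these cell types in the rise of Mthfd2, Asns, Psat1 and Trib3 was not tested, and in pooled whole muscle more cells of a type and more RNA per cell cannot be told apart.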

How the data were processed

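RNA of 4 TA muscles per group was pooled and sequenced from a stranded mRNA kit. The authors deposited raw counts for each gene. Their other deposited table, named for FPKM, holds log2 values: every count was multiplied by a factor of its library, 1 was added and the log2 taken. The submitters' processing notes name FastQC and GRCm39, and the aligner and counter are not given in the sources used here. The methods name edgeR, with thresholds of 0.05 on the adjusted p-value and 1 on the size of the log2 change. Groups were taken from the sample labels.

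Counts were analysed with R 4.3.3, edgeR 4.0.16 and DESeq2 1.42.0, with TMM scaling and a prior count of 2 for log2 CPM. An additive model of surgery and genotype was fitted with edgeR (quasi-likelihood test), with Benjamini-Hochberg adjustment over 13084 genes, and each SE is the log2 fold change divided by the square root of F. That model has 1 residual degree of freedom, and its common biological coefficient of variation was 0.0681. Pairs of libraries were compared by fold only, with exact binomial counting intervals, and the difference between the genotypes' responses has a normal interval from the counts. Levels per kilobase used exon lengths of GENCODE M21. The scripts were tested on simulated data.

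The 10 genes and the pathway and marker lists were chosen with earlier results of these data known. Named from each pathway list are the 2 genes with the highest and the 2 with the lowest log2 fold change, and others are given as chosen after their values were seen or serve as the next enzyme of a pathway. The settings varied were the scaling (size factors of DESeq2, or total counts only), other count filters and prior counts, the deposited log2 values, the exact test of edgeR with its coefficient of variation set to 0.1 or 0.4, a fold of 1.5, DESeq2's Wald test and no fold threshold.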

Additional observations from a re-analysis of the deposited data

Results flagged for a closer look

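Only the 9 genes and the genes named above, cell markers aside, were examined here. Among them, Atf5, Eif2ak4, Slc3a2 and Mthfd2l had denervation log2 ratios of opposite sign in the genotypes. Other genes of the lists did so too, such as Tes (-0.695 in WT, 0.059 in Fgf21KO) and Shmt1 (0.656 in WT, -0.095 in Fgf21KO). The share of all genes with opposite signs was not counted. Each ratio rests on 1 library per group, so the difference was not tested. For Atf5 the ratio was 0.07 in WT but -0.24 in Fgf21KO muscle, which is -0.31 as Fgf21KO minus WT, and both ratios were positive (0.35 and 0.12) with scaling by total counts only. For Eif2ak4, which encodes the eIF2 kinase GCN2, the ratio was -0.58 in WT (197 counts in WS, 185 in WD) but 0.04 in Fgf21KO muscle (197 in KS, 211 in KD), which is 0.62 as Fgf21KO minus WT. For Slc3a2 the ratios were 0.01 in WT and -0.16 in Fgf21KO muscle (Fgf21KO minus WT, -0.17), and for Mthfd2l they were -0.17 and 0.15 (Fgf21KO minus WT, 0.32). Both of these genes were named after their values were seen.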

How the results depend on the processing

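Over the 7 counts of the 9 genes called, 55 of 59 alternatives stayed within 1.5 times the value reported. The exceptions came from edgeR's exact test at 0.4, a fold of 1.5 and the adjusted p-value alone. At an assumed variation between libraries of 0.4, the exact test called 0 of the 9 genes in either denervation pair. It called few genes of any kind, 63 of all 13084 for WT and 81 for Fgf21KO muscle. A fold of 1.5 called 1 gene (Psat1) in KS vs WS. The adjusted p-value alone passed 7 for denervation (Atf4, Sesn2 and Shmt2 in addition). The counts for KS vs WS, KD vs WD, genotype and the difference of responses were 0, and 0 against 0 was taken as unchanged. The exact test also required a 2-fold ratio, which none of the 9 genes reached in the genotype pairs, so it could call none there. With the deposited log2 values 3 were called in KD vs KS, where Trib3 was at 0.85. Scaling by total counts only put the median log2 ratio over all genes at 0.29 for WT and 0.36 for Fgf21KO muscle, and turned the model's log2 fold changes of Atf5 to 0.23 and of Ddit3 to 0.18. Except where a setting's own construction gives it (a lower threshold, fewer genes), the cause was not tested. Over all genes, the counts called between denervated and sham muscle were 1936 in WT and 1780 in Fgf21KO, and between genotypes 267 in sham and 203 in denervated muscle. In that order they were 4545, 4429, 997 and 774 at a fold of 1.5, 63, 81, 0 and 3 by the exact test at 0.4, and 1188, 1117, 29 and 25 with the deposited log2 values. In KS vs WS and KD vs WD they were 56 and 49 by the exact test at 0.1, and 68 and 46 at a mean count of 50 or more. For genotype 23 genes passed, 15 at that filter, 13 by DESeq2 and 88 by the adjusted p-value alone, and for denervation 1711 passed, and 7003 by the adjusted p-value alone. By that last rule, which 53.5% of all genes passed, the lists gave 9 of 19 for eIF2 and 15 of 23 for other ATF4 targets. Carriers gave 7 of 10, serine and one-carbon genes 14 of 25 and synthetases 12 of 20. ER genes gave 16 of 23 and mitochondrial chaperones 6 of 14. Of the 2 serine and one-carbon genes that passed, 1 did at a mean count of 50 or more and 1 by DESeq2. No paired analysis was possible because a group holds a single pool, and no library could be left out for that reason. Depth limits Asns and Psat1 most, at 26 and 28 counts in WS.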
